A study of Mus musculus with 6 samples.

Results

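Hedgehog signaling in the tail tendon was followed through 9 genes chosen by symbol: the ligands *Ihh* and *Shh*, the receptor *Ptch1*, the signal transducer *Smo*, the transcription factors *Gli1*, *Gli2* and *Gli3*, and the inhibitors *Hhip* and *Sufu*. All 9 were found among the 44788 gene symbols of the deposited count table, and 6 had enough counts to be tested. The RNA came from tail tendons of 3 wild-type (WT) mice and 3 *Mkx*-/- mice, which lack the tendon transcription factor Mohawk (Mkx), all of strain C57BL/6 and aged 3 weeks by the sample labels, although the study's text gives an older age. The labels name no treatment, and neither they nor the Methods describe the *Mkx* allele, a Cre driver or pooling of animals. Whether the 3 libraries of a genotype came from separate mice is not stated beyond their replicate numbers, so the p-values measure the spread between these libraries.

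In cells that receive a Hedgehog ligand, Ptch1 stops restraining Smo at the primary cilium, and Gli2 and Gli3 are no longer processed into repressors or held by Sufu. The genes *Gli1*, *Ptch1* and *Hhip* are themselves targets of the Gli proteins, and their RNA levels are commonly read as the output of the pathway. *Ihh* is known as the ligand of prehypertrophic chondrocytes in the growth plate, *Shh* as a ligand of the hair follicle, and *Dhh*, which is not among the 9, as the ligand of Schwann cells. In tendon, *Gli1* marks cells at the attachment to bone.

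The libraries held 10835070 to 14160301 counts, which were scaled with edgeR's TMM factors and are given as normalized CPM, counts relative to the scaled size of the library. A filter on low counts left 14550 genes for edgeR's quasi-likelihood test with Benjamini-Hochberg adjustment. *Mkx* itself had 135 to 144 CPM in WT and 38.9 to 56.8 CPM in *Mkx*-/- tendons, or a log2 fold change of -1.60 (adjusted p = 0.00183). By *Xist* and *Ddx3y* counts, WT replicate 3 was the only male library, and without it 0 of the Hedgehog genes were past the threshold, as with it. That fit called only 103 genes upregulated, against 275 with all libraries, so it cannot show whether sex mattered. *Col1a1*, *Col1a2* and *Sparc* took 42.0% to 48.5% of the counts in WT and 28.4% to 34.8% in *Mkx*-/- libraries, and scaling by library size alone raised the median log2 fold change of all genes by 0.25 and turned the split of 275 upregulated and 193 downregulated genes into 711 and 154. Of the defining tendon markers, *Scx* had 17.3, 40.2 and 53.4 CPM in WT and 19.4, 13.3 and 17.5 CPM in *Mkx*-/- tendons (log2 fold change -1.14, edgeR adjusted p = 0.106). Over all 6 libraries *Tnmd* had 886 to 1292 CPM and *Fmod* 15622 to 19825 CPM. The tendon list of 12 genes had 1 gene past an adjusted p of 0.05 by edgeR in each direction, *Thbs4* higher and *Mkx* lower. At an unadjusted p under 0.05, 4 were higher and 4 lower, and DESeq2 called 2 higher and 5 lower.

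None of the 6 Hedgehog genes that could be tested was called higher or lower in *Mkx*-/- tendons at an adjusted p of 0.05. *Smo* and *Sufu* lay at nearly the same level in all 6 libraries, *Gli2* and *Gli3* had lower means in *Mkx*-/- tendons with overlapping libraries, and *Ptch1* had the same mean in both genotypes but a wide spread. *Gli1* had the largest fold change, a mean 2.14 times that of WT, which rested mainly on 1 library. *Ihh*, *Shh* and *Hhip* had 0 to 10 counts per library, too few to pass the filter. Of the 6 genes tested, 0 were past an adjusted p of 0.05 by edgeR in either direction, where 3.18% of all 14550 genes were past it upward and 2.26% downward. At an unadjusted p under 0.05, 1 gene (*Gli1*) was higher and 0 were lower, beside 1812 higher and 1476 lower among all 14550. DESeq2 also called 0 of the 6. With a log2 fold change above 1 or below -1 added, the thresholds of the study's Methods, the calls were again 0 among the 6, and 1.89% upward and 1.33% downward among all genes. DESeq2 at these thresholds gave 384 upregulated and 278 downregulated genes of the 14550. The 3 WT and 3 *Mkx*-/- libraries overlapped for all 6 genes tested, and they did not overlap for 28.2% of all genes tested. They also overlapped for *Ihh*, *Shh* and *Hhip*, whose counts are too low to compare with that share. With only 6 genes tested, neither 0 calls nor 0 separated genes can be set apart from the shares of all genes. The median log2 fold change of the 6 was -0.029, and that of all tested genes was -0.0037. Since bulk RNA was measured, fewer cells of a type and less RNA per cell cannot be told apart in these values.

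**Figure D1:**
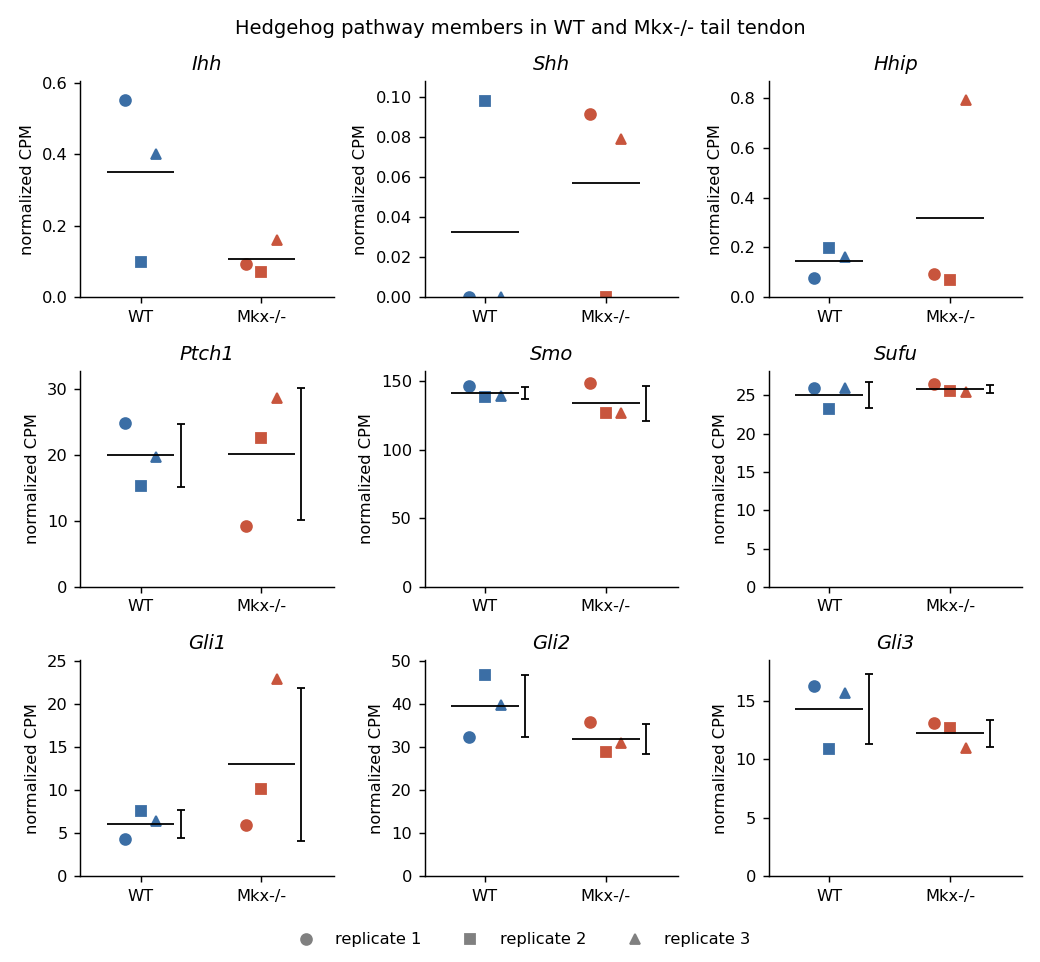
Normalized CPM (y axis, from 0) of the 9 Hedgehog pathway genes in each library of WT and *Mkx*-/- tail tendons; points are libraries, horizontal lines are means of 3 libraries, and vertical bars are SDs, drawn only for the 6 tested genes. The groups overlap in every panel, and *Mkx*-/- replicate 3 is the highest library for *Gli1*, *Ptch1* and *Hhip*.

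Among the ligands, *Ihh* was counted 7, 1 and 5 times in WT replicates 1 to 3 and 1, 1 and 2 times in *Mkx*-/- replicates 1 to 3. The 13 counts in WT and 4 counts in *Mkx*-/- libraries gave pooled levels of 0.368 and 0.106 CPM, a ratio of 0.288 with an exact 95% interval of 0.0684 to 0.933 that covers counting error only. Most of the WT counts came from 2 of the 3 libraries, and WT replicate 2 was as low as the *Mkx*-/- libraries. With all genes of at least 1 count in any library tested, the adjusted p of *Ihh* was 0.435. *Shh* was counted 0, 1 and 0 times in WT and 1, 0 and 1 times in *Mkx*-/- libraries. Both genotypes were thus at or under the 3 counts that a count of 0 allows per library, which equal 0.211 to 0.294 CPM here, so no fold change is given. The annotation of mm9 places *Ihh* on chromosome 1 from 74991891 to 74998246, with no overlapping gene, and *Shh* on chromosome 5 from 28783355 to 28793641, under 2 genes of the opposite strand whose reads the counts may not separate.

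Markers of the tissues known for these ligands were present unevenly. Of 16 growth plate chondrocyte genes in the table, 13 were tested and 3 were upregulated, namely *Ucma*, *Acan* and *Matn3* at log2 fold changes of 3.47, 2.20 and 1.45 and adjusted p-values of 0.000158, 0.00380 and 0.00181. The 2 most abundant genes of the list were not past the threshold. *Col2a1*, the main collagen of cartilage, had 476 to 997 CPM in WT and 537 to 954 CPM in *Mkx*-/- tendons (log2 fold change -0.084, adjusted p = 0.905), and *Chad*, a cartilage matrix protein gene, had 571 to 978 CPM in WT and 937 to 1504 CPM in *Mkx*-/- tendons (log2 fold change 0.69, adjusted p = 0.160). *Col2a1* and *Chad* made up most of the summed level of the list, 1527 to 1715 CPM in WT and 2052 to 2388 CPM in *Mkx*-/- libraries. Of the 13 tested, 9 had positive and 4 negative log2 fold changes, and at an unadjusted p under 0.05 there were 7 higher and 1 lower, *Sox6*. *Matn1* had 0 counts throughout and *Col10a1*, the collagen of hypertrophic chondrocytes, had 0.883 to 1.28 CPM in WT and 0.634 to 2.04 CPM in *Mkx*-/- libraries. In the same libraries *Ihh* was counted 7, 1 and 5 times in WT and 1, 1 and 2 times in *Mkx*-/- tendons. A relation between *Ihh* and the higher *Ucma*, *Acan* and *Matn3* was not tested. The 10 osteoblast genes summed to 2.76 to 5.61 CPM in WT and 5.34 to 6.66 CPM in *Mkx*-/- libraries. Only 2 of them passed the filter and 0 were past an adjusted p of 0.05 by edgeR, with both higher at an unadjusted p under 0.05 and 1 called by DESeq2. The 14 epidermis and hair follicle genes summed to 22.2 to 41.0 CPM in WT and 52.1 to 61.8 CPM in *Mkx*-/- libraries, with *Krt17* the only one past the threshold among 9 tested, and *Krt5*, *Krt15* and *Krt17* were each at 0 in at least 1 WT library. Log2 fold changes were positive for 8 and negative for 1, with 6 higher and 1 lower at an unadjusted p under 0.05. The lower gene, *Trp63*, had 10.6, 17.1 and 19.0 CPM in WT and 9.98, 8.57 and 4.44 CPM in *Mkx*-/- tendons. Its log2 fold change was -1.02 (edgeR adjusted p = 0.102), and its libraries did not overlap. The part of such cells in the *Ihh* and *Shh* counts was not tested.

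*Dhh* supplied nearly all ligand reads. It was counted 183, 193 and 218 times in WT and 208, 510 and 544 times in *Mkx*-/- libraries, which was 96.3% to 99.0% of the counts on the 3 ligand genes in WT and 99.0% to 99.8% in *Mkx*-/- libraries. Its level was 14.4, 18.9 and 17.5 CPM in WT and 19.1, 35.8 and 43.1 CPM in *Mkx*-/- tendons. The groups did not overlap, although *Mkx*-/- replicate 1 lay close to the highest WT library. The log2 fold change of *Dhh* was 0.95 (standard error 0.28), and its adjusted p was 0.0850 by edgeR, 0.0155 by DESeq2 and between 0.00844 and 0.245 over all alternatives. The lowest came from the test of all genes with at least 1 count, and the highest without *Mkx*-/- replicate 3. Without *Mkx*-/- replicate 1 the adjusted p in edgeR was 0.0159. *Dhh* lies on chromosome 15 of mm9 from 98723462 to 98728971, with no overlapping gene.

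The summed level of Schwann cell markers was, like *Dhh*, higher in every *Mkx*-/- library than in any WT library. All 14 genes of the Schwann cell list, which holds the myelin genes *Mbp* and *Pmp22* and the transcription factor *Sox10*, had positive log2 fold changes with a median of 0.92, none was at 0 in any library, and their summed level was 8398, 10399 and 11086 CPM in WT and 13003, 21271 and 24138 CPM in *Mkx*-/- libraries. By edgeR 0 of the 14 were past an adjusted p of 0.05, with 11 higher at an unadjusted p under 0.05, and DESeq2 called 10 higher. The order of the *Mkx*-/- libraries was the same as for *Dhh*. Within each library, *Dhh* had 1.72, 1.82 and 1.58 counts per 1000 counts of the list in WT and 1.47, 1.68 and 1.79 in *Mkx*-/- tendons. This ratio needs no scaling between libraries, and its means of 1.70 ± 0.12 and 1.65 ± 0.16 (SD, n = 3 each) differed by less than the spread between replicates. The part of Schwann cells in the level of *Dhh* was not tested.

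**Figure D2:**
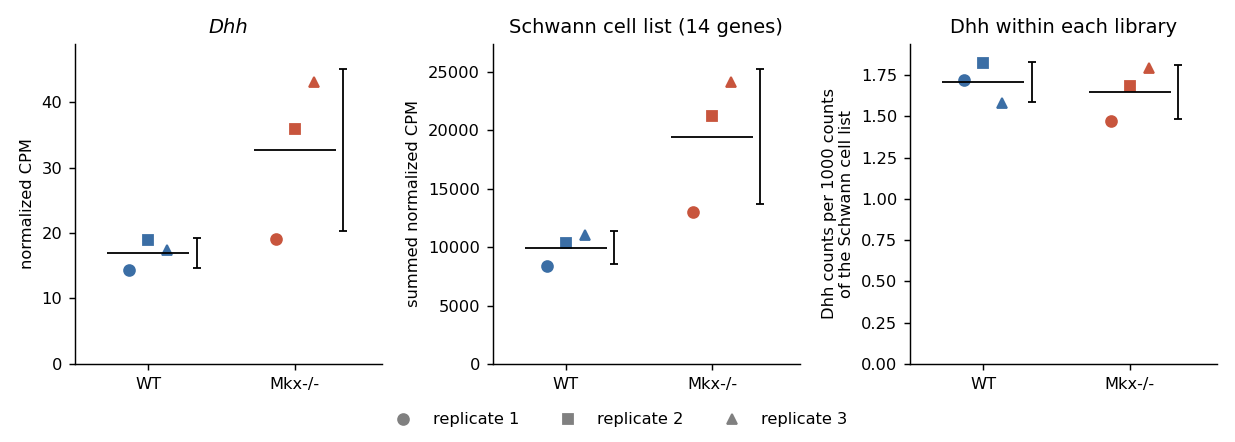
Level of the ligand gene *Dhh* (left, normalized CPM), summed level of the 14 Schwann cell genes (middle, normalized CPM) and *Dhh* counts per 1000 counts of that list within each library (right); points are libraries, lines are means and bars are SDs of 3 libraries, with all y axes from 0. The first 2 panels separate the genotypes, while the ratio overlaps at 1.58 to 1.82 in WT and 1.47 to 1.79 in *Mkx*-/- tendons.

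The receptor *Ptch1*, which binds the ligands and is itself induced by Gli proteins, had 24.8, 15.2 and 19.7 CPM in WT and 9.16, 22.6 and 28.7 CPM in *Mkx*-/- tendons. The *Mkx*-/- group held both the lowest and the highest of the 6 libraries. The means were 19.9 ± 4.80 and 20.2 ± 10 CPM (SD, n = 3 each), with a log2 fold change of 0.020 ± 0.37 (SE, edgeR adjusted p = 0.985). Its 95% confidence interval of -0.82 to 0.86 spans 0.568 to 1.81 times the WT level, so a moderate change in either direction was not detectable with these libraries. Leaving out *Mkx*-/- replicate 1 gave 0.34 and leaving out *Mkx*-/- replicate 3 gave -0.32. *Ptch1* extends over chromosome 13 of mm9 from 63610261 to 63674474 on the minus strand.

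*Smo*, the membrane protein that passes the signal on, was the most abundant of the 9. It had 147, 139 and 139 CPM in WT and 149, 126 and 127 CPM in *Mkx*-/- tendons, so that *Mkx*-/- replicate 1 was above all WT libraries and the others were below them. The log2 fold change was -0.078 ± 0.12 (SE, edgeR adjusted p = 0.752), and its 95% interval of -0.35 to 0.20 corresponds to 0.783 to 1.15 times the WT level. Set against *Smo* within each library, *Ptch1* had 16.9, 11 and 14.2 counts per 100 counts of *Smo* in WT and 6.16, 17.9 and 22.7 in *Mkx*-/- tendons (two-sided exact permutation test, p = 0.8, adjusted over both ratios tested 0.8, where 0.1 is the smallest p possible). The spread of *Ptch1* between *Mkx*-/- libraries was thus present without any scaling. *Smo* lies on chromosome 6 of mm9 from 29685694 to 29711365, and the gene model *Gm13717* overlaps it on the same strand.

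*Hhip*, a decoy that binds Hedgehog ligands outside the cell and a target of Gli proteins, was counted 1, 2 and 2 times in WT and 1, 1 and 10 times in *Mkx*-/- libraries. The 10 counts of *Mkx*-/- replicate 3 made up most of the 12 in its group. The pooled ratio of *Mkx*-/- to WT was 2.25, with an exact 95% interval of 0.737 to 8.14 for counting error only, and the adjusted p was 0.658 where all genes with at least 1 count were tested.

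*Gli1*, the Gli factor that acts as an activator and is itself the usual readout of the pathway, had 4.33, 7.56 and 6.49 CPM in WT and 5.95, 10.2 and 23.0 CPM in *Mkx*-/- tendons. *Mkx*-/- replicate 1 lay within the WT range, replicate 2 above it, and replicate 3 was more than 2 times higher than any other. The means were 6.13 ± 1.64 and 13 ± 8.87 CPM (SD, n = 3 each), and the log2 fold change was 1.10 ± 0.46 (SE, 95% interval 0.057 to 2.14, edgeR adjusted p = 0.198). DESeq2 gave an adjusted p of 0.0927, and the range over all alternatives was 0.0491 to 0.582. Only the test of all 25777 genes with at least 1 count passed the threshold. Without *Mkx*-/- replicate 3 the log2 fold change was 0.41, and without *Mkx*-/- replicate 1 it was 1.41. *Gli1* lies on chromosome 10 of mm9 from 126766945 to 126778645, where *Arhgap9* overlaps it on the opposite strand, so that reads of both could be mixed.

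The other Gli genes encode the factors that are present before a signal arrives. *Gli2*, the main activator, had 32.3, 46.8 and 39.7 CPM in WT and 35.8, 28.9 and 31.1 CPM in *Mkx*-/- tendons. Its log2 fold change was -0.31 ± 0.16 (SE, 95% interval -0.68 to 0.061, edgeR adjusted p = 0.304). *Gli3*, the main repressor, had 16.3, 10.9 and 15.7 CPM in WT and 13.1, 12.7 and 10.9 CPM in *Mkx*-/- tendons, or a log2 fold change of -0.23 ± 0.18 (SE, 95% interval -0.64 to 0.19, edgeR adjusted p = 0.509). For *Gli2* 2 of the 3 *Mkx*-/- libraries lay below the WT range, and for *Gli3* all 3 lay within it. *Gli1* had 8.91, 13.1 and 11.7 counts per 100 counts of *Gli2* and *Gli3* together in WT, and 12.2, 24.5 and 54.7 in *Mkx*-/- tendons. This ratio overlapped between the groups only through *Mkx*-/- replicate 1 (two-sided exact permutation test, p = 0.2, adjusted over both ratios tested 0.4). *Gli2* lies on chromosome 1 of mm9 from 120730709 to 120950196 and *Gli3* on chromosome 13 from 15555068 to 15821859.

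*Sufu*, which binds Gli proteins in the cytoplasm, varied little between libraries. Its level was 26.0, 23.2 and 26.0 CPM in WT and 26.5, 25.6 and 25.4 CPM in *Mkx*-/- tendons. The log2 fold change was 0.042 ± 0.11 (SE, edgeR adjusted p = 0.867), and the 95% interval of -0.22 to 0.30 spans 0.860 to 1.23 times the WT level. *Sufu* extends over chromosome 19 of mm9 from 46471386 to 46563294. Of the 9, *Smo* and *Sufu* were thus the genes for which these libraries bound a change most narrowly.

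**Figure D3:**
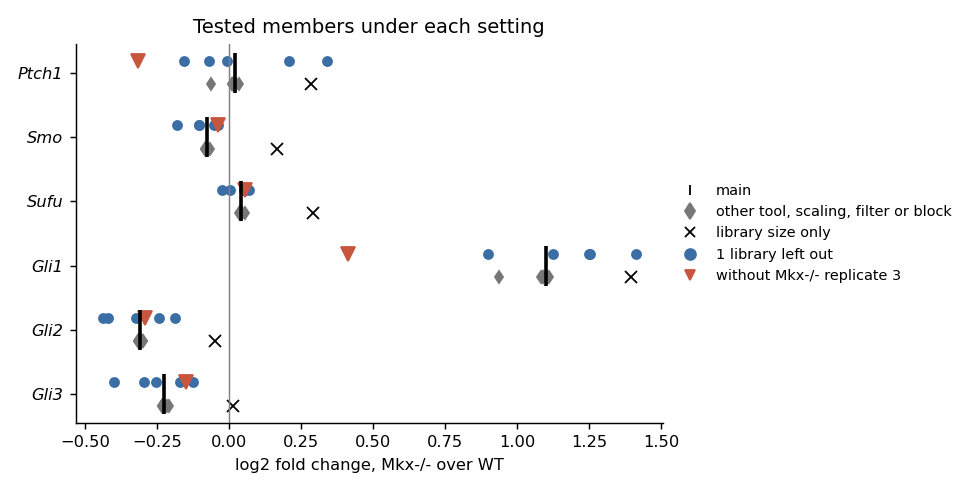
Log2 fold change (x axis, *Mkx*-/- over WT) of the 6 tested Hedgehog genes with edgeR as described, under other tools, scalings, filters or the replicate block, with scaling by library size only, and with 1 library left out. *Gli1* drops from 1.10 to 0.41 without *Mkx*-/- replicate 3, *Ptch1* lies between -0.32 and 0.34, and scaling by library size alone shifts all 6 genes to the right.

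Levels of different genes were compared per kilobase of annotated exons (CPM/kb). In WT tendons *Smo* stood first with 37.4 ± 1.19 CPM/kb, followed by *Gli2* with 5.77 ± 1.06, *Sufu* with 3.61 ± 0.24, *Ptch1* with 3.03 ± 0.73, *Gli1* with 1.62 ± 0.43 and *Gli3* with 1.49 ± 0.31 CPM/kb (SD, n = 3 each). *Sufu* and *Ptch1* overlapped, as did *Gli1* and *Gli3*, whereas the other neighbours in this order were apart in all 3 WT libraries. *Ihh* with 0.142 ± 0.094, *Hhip* with 0.030 ± 0.012 and *Shh* with 0.012 ± 0.021 CPM/kb came last (SD, n = 3 each), and their counts are too low to rank them. In *Mkx*-/- tendons *Smo* had 35.4 ± 3.37, *Gli2* 4.65 ± 0.51, *Sufu* 3.72 ± 0.080, *Gli1* 3.45 ± 2.35, *Ptch1* 3.07 ± 1.52 and *Gli3* 1.28 ± 0.12 CPM/kb (SD, n = 3 each), so *Gli1* stood above *Ptch1* by its mean while their libraries overlapped. On the same scale *Dhh* had 7.17 ± 0.98 CPM/kb in WT and 13.8 ± 5.22 CPM/kb in *Mkx*-/- tendons (SD, n = 3 each).

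The profiles of the target genes over the 6 libraries were compared with those of 10294 genes averaging 5 CPM or more, by the root mean square distance between log2(CPM + 0.5) values centred on each gene's mean. The 5 genes nearest to *Gli1* were *Sparcl1*, *Notch3*, *Fam212b*, *Pcp4l1* and *Cdh5*, at distances of 0.159 to 0.186. Each of these was highest in *Mkx*-/- replicate 3, such as *Notch3* with 25.8 CPM there and 5.59 to 10.9 CPM in the other libraries, and *Cdh5*, the cadherin of endothelial cells, with 22.4 CPM there and 4.88 to 10.5 CPM in the others. The 5 genes nearest to *Ptch1* were *Zfp568*, *Abca8b*, *Gm7866*, *Serpine2* and *Gpr116*, at distances of 0.164 to 0.223, and each was lowest in *Mkx*-/- replicate 1. No gene was shared between these 2 sets. *Gli1* and *Ptch1* themselves had the same order in the *Mkx*-/- libraries, while among the WT libraries replicate 1 was highest for *Ptch1* and lowest for *Gli1*.

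The summed level of endothelial markers was also highest in *Mkx*-/- replicate 3. Of 14 endothelial genes, 12 had positive log2 fold changes and *Erg* and *Ecscr* were upregulated, with none at 0 in any library. Higher at an unadjusted p under 0.05 were 10, and lower 0, beside 1812 and 1476 of all 14550 genes. DESeq2 called 6 of the 14 higher. *Mkx*-/- replicate 3 was the highest library for 8 of the 14, *Pecam1*, *Cdh5* and *Vwf* among them, while *Erg* and *Ecscr* were highest in *Mkx*-/- replicates 1 and 2. The sum over the 14 was 109, 136 and 126 CPM in WT and 188, 205 and 262 CPM in *Mkx*-/- tendons. Per 1000 counts of this list, *Gli1* had 39.8, 55.5 and 51.4 counts in WT and 31.6, 49.8 and 87.7 counts in *Mkx*-/- tendons. *Mkx*-/- replicate 3 was thus the highest relative to the summed list, but this depended on the marker. In *Mkx*-/- replicates 1 to 3, *Gli1* had 65, 145 and 290 counts, *Cdh5* 97, 149 and 282, and *Pecam1* 97, 132 and 347. *Erg* had 482, 528 and 339 counts there and *Tek* 274, 367 and 351. Relative to 1000 Schwann cell counts, *Gli1* had 0.516, 0.727 and 0.585 in WT and 0.458, 0.479 and 0.952 in *Mkx*-/- tendons. There *Mkx*-/- replicate 3 was again the highest, while *Mkx*-/- replicates 1 and 2 lay below every WT library. *Ptch1* had 228, 112 and 156 counts per 1000 of the endothelial list in WT and 48.6, 111 and 109 in *Mkx*-/- tendons. Per 1000 Schwann cell counts it had 2.95, 1.46 and 1.78 in WT and 0.704, 1.06 and 1.19 in *Mkx*-/- tendons. Relative to either list *Ptch1* was thus lower in every *Mkx*-/- library than in any WT library, by a narrow margin for the endothelial list. Both lists themselves summed higher in every *Mkx*-/- library than in any WT library, while *Ptch1* had a log2 fold change of 0.020. A ratio to a rising list falls for a gene whose mean stays level, so these ratios do not show lower *Ptch1*. The 24 skeletal muscle genes, by contrast, summed to 111 to 501 CPM in WT and to 3531, 1711 and 708.5 CPM in *Mkx*-/- replicates 1 to 3, the reverse of the order of *Gli1*, and 6 were upregulated. Removing them before scaling changed no call among the 9 genes. All 11 macrophage and leukocyte genes had negative log2 fold changes, 3 of them past the adjusted threshold, and summed to 509.5 to 568 CPM in WT and 316 to 386.5 CPM in *Mkx*-/- libraries. The part of these cells in the levels of *Gli1* and *Ptch1* was not tested.

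The other genes of the pathway were taken from 5 lists by role, with 102 genes in the table beside the 9 and 89 of them tested. Of these, 4 (4.49%) rose and 3 (3.37%) fell in *Mkx*-/- tendons at an adjusted p of 0.05, beside 3.18% and 2.26% of all genes tested. The 7 were the cell surface genes *Gpc4*, *Gpc3* and *Cdon*, the relay genes *Arrb1*, *Tulp3* and *Dyrk2*, and the target gene *Pthlh*. In mm9, *Gpc4* lies on chromosome X from 49406198 to 49518429 and *Gpc3* beside it from 49625603 to 49967127, *Cdon* on chromosome 9 from 35228713 to 35315236 and *Pthlh* on chromosome 6 from 147200623 to 147212689. Genes of the opposite strand overlap *Gpc3* and *Dyrk2*, so their counts could hold reads of both strands.

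**Figure D4:**
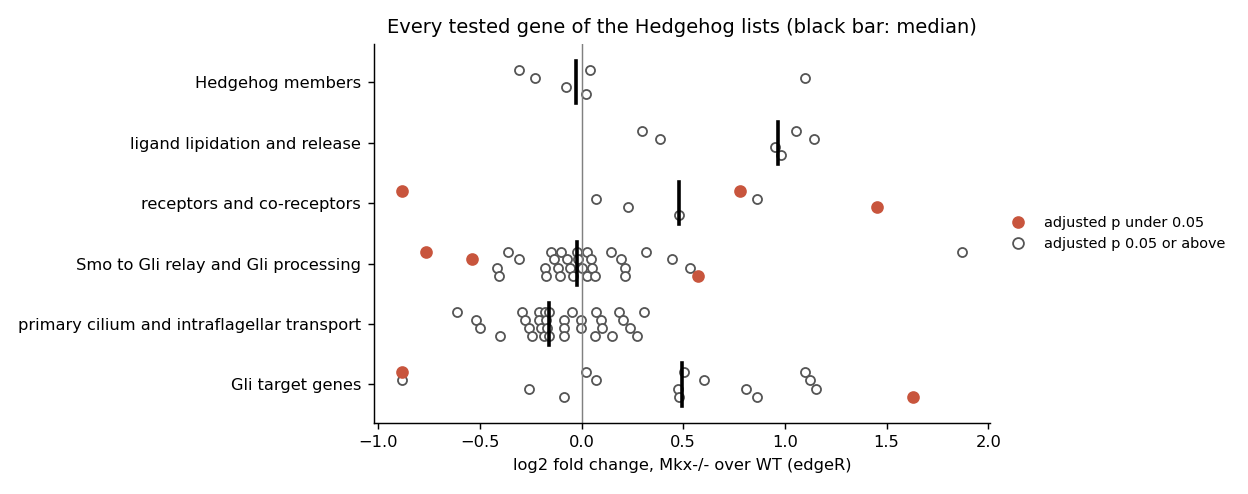
Log2 fold change (x axis, *Mkx*-/- over WT, edgeR) of every tested gene of the 9 Hedgehog genes and of the 5 other lists; filled points are past an adjusted p of 0.05 and black bars are list medians. The medians run from -0.16 for cilium genes to 0.97 for genes of ligand lipidation and release, and the filled points lie in the receptor, relay and target lists.

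Among receptors and co-receptors, 7 of 9 genes were tested, 2 rose and 1 fell, and the median log2 fold change was 0.48. *Cdon*, a co-receptor that helps Ptch1 bind ligand, fell from 134, 158 and 204 CPM in WT to 96.6, 81.1 and 90.7 CPM in *Mkx*-/- tendons. Its log2 fold change was -0.89 ± 0.17 (SE, edgeR adjusted p = 0.0252), and its libraries did not overlap. *Boc*, the related co-receptor, had 112 to 150 CPM in WT and 140 to 209 CPM in *Mkx*-/- tendons (log2 fold change 0.48, adjusted p = 0.163). *Gas1*, a co-receptor anchored to the membrane by a lipid, had 124 to 226 CPM in WT and 164 to 219 CPM in *Mkx*-/- tendons (log2 fold change 0.071, adjusted p = 0.891). *Gpc4*, a heparan sulfate proteoglycan of the glypican family, had 19.8, 27.9 and 29.2 CPM in WT and 80.3, 62.1 and 68.2 CPM in *Mkx*-/- tendons, or a log2 fold change of 1.46 ± 0.18 (SE, edgeR adjusted p = 0.00393). *Gpc3*, the glypican known to compete with Ptch1 for ligand, had 101, 120 and 119 CPM in WT and 193, 177 and 214 CPM in *Mkx*-/- tendons, or a log2 fold change of 0.78 ± 0.13 (SE, edgeR adjusted p = 0.0164). Both glypican genes were thus higher in every *Mkx*-/- library than in any WT library. *Gpc4* was past the threshold in every fit that left out a library, *Gpc3* was not without WT replicate 2 (0.0608), WT replicate 3 (0.0632) or *Mkx*-/- replicate 3 (0.0623), and *Cdon* was not without WT replicates 2 (0.0784) and 3 (0.0718) or *Mkx*-/- replicates 2 (0.0915) and 3 (0.0856), all edgeR adjusted p. With the replicate number as a block, *Gpc3* and *Cdon* had adjusted p of 0.0506 and 0.0597.

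The list of genes that modify and release the ligands, which also holds the ligand *Dhh*, had the highest median of the 5 lists, 0.97. Of 8 genes 6 were tested, all 6 had positive log2 fold changes, and 0 were past an adjusted p of 0.05 by edgeR, with 5 higher at an unadjusted p under 0.05 and 3 called higher by DESeq2. *Dhh* is one of the 6. The log2 fold changes ran from 0.30 for *Disp1* and 0.38 for *Scube2* to 1.06 for *Hhatl* and 1.14 for *Scube1*. *Hhat*, the enzyme that attaches palmitate to the ligands, had 4.02 to 7.26 CPM in WT and 7.93 to 11.7 CPM in *Mkx*-/- tendons (log2 fold change 0.98, edgeR adjusted p = 0.0725). *Scube1*, of a family of secreted proteins of which *Scube2* helps release the ligands, had 6.07, 5.79 and 8.49 CPM in WT and 8.24, 16.2 and 20.5 CPM in *Mkx*-/- tendons, and *Scube3* was counted 40 times in *Mkx*-/- replicate 3 and 0 to 6 times elsewhere. Per 1000 counts of the Schwann cell list, *Scube1* had 0.722, 0.557 and 0.766 counts in WT and 0.634, 0.760 and 0.851 counts in *Mkx*-/- libraries, which overlapped. *Disp1*, the transporter that releases ligand from the producing cell, had 42.0 to 54.5 CPM in WT and 49.9 to 64.6 CPM in *Mkx*-/- tendons (log2 fold change 0.30, adjusted p = 0.289).

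The relay between Smo and the Gli proteins had 33 of 34 genes tested, with a median log2 fold change of -0.021, 1 gene past the threshold upward and 2 downward. *Arrb1*, which encodes a beta-arrestin, fell from 127, 105 and 97.5 CPM in WT to 65.8, 65.7 and 62.3 CPM in *Mkx*-/- tendons (log2 fold change -0.76 ± 0.13 SE, edgeR adjusted p = 0.0168). *Tulp3*, which carries membrane receptors into the cilium, rose from 16.9, 17.4 and 15.9 CPM to 24.4, 23.7 and 26.6 CPM (log2 fold change 0.57 ± 0.12 SE, edgeR adjusted p = 0.0311). *Dyrk2*, a kinase that acts on Gli proteins, fell from 26.9, 21.6 and 23.4 CPM to 16.8, 16.2 and 16.5 CPM (log2 fold change -0.54 ± 0.13 SE, edgeR adjusted p = 0.0488). The libraries did not overlap for any of the 3. *Arrb1* was not past the threshold without WT replicate 2 (0.0577), *Mkx*-/- replicate 2 (0.0649) or *Mkx*-/- replicate 3 (0.0695), *Tulp3* was past it only without WT replicate 1 and *Dyrk2* in none of these fits, where the adjusted p-values reached 0.115 and 0.150. With the replicate number as a block the adjusted p was 0.0823 for *Tulp3* and 0.0921 for *Dyrk2*, and with scaling by library size alone it was 0.0848 for *Arrb1* and 0.294 for *Dyrk2*. Of the cilium and intraflagellar transport genes, all 33 in the table were tested, 10 had positive and 23 negative log2 fold changes with a median of -0.16, and 0 were past an adjusted p of 0.05 by edgeR. At an unadjusted p under 0.05, 1 was higher and 3 were lower, and DESeq2 called 1 lower.

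Among 25 Gli target genes in the table, 16 were tested, of which 1 rose and 1 fell. The log2 fold changes were positive for 12 and negative for 4, with a median of 0.49, and at an unadjusted p under 0.05 there were 9 higher and 2 lower genes, beside 1812 higher and 1476 lower among all 14550. *Gli1* and *Ptch1* are themselves in this list. *Pthlh*, the gene of parathyroid hormone-related protein, which *Ihh* induces in the growth plate, had 1.26, 1.67 and 1.20 CPM in WT and 4.31, 3.72 and 4.76 CPM in *Mkx*-/- tendons. Its log2 fold change was 1.63 ± 0.26 (SE, edgeR adjusted p = 0.0122), and the adjusted p was 0.0605 without WT replicate 3. *Pthlh* was thus the only target in the list called upregulated, and its relation to *Ihh*, with 1 to 7 counts per library, was not tested. *Cdon*, which is also in this list, was the gene that fell. The list does not mark which genes the pathway raises and which it lowers, so these tallies give no direction of pathway output. *Foxf1* had 0.401 to 1.18 CPM in WT and 1.10 to 2.06 CPM in *Mkx*-/- tendons (edgeR adjusted p = 0.194), and *Foxl1*, *Nkx3-2* and *Nkx2-2* had 0 counts in all libraries. *Ccnd2*, a cyclin gene, had 36.5 to 71.2 CPM in WT and 26.1 to 34.7 CPM in *Mkx*-/- tendons (log2 fold change -0.88, edgeR adjusted p = 0.0719).

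**Figure D5:**
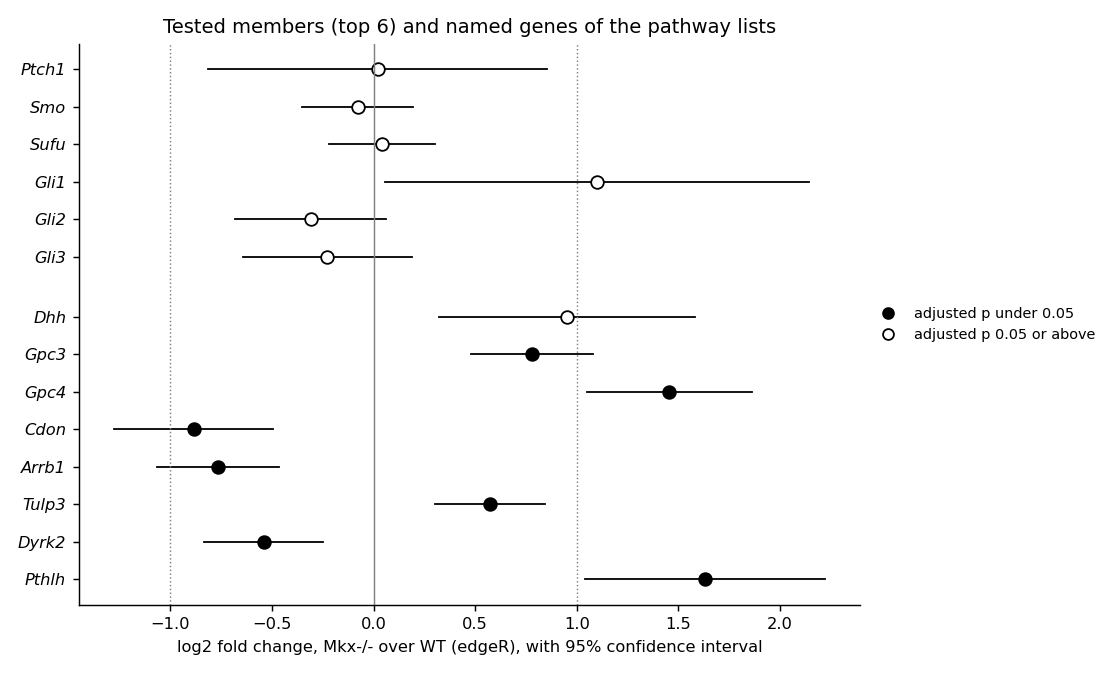
Log2 fold change (x axis, *Mkx*-/- over WT, edgeR) with 95% confidence interval for the 6 tested Hedgehog genes (top) and for named genes of the other lists; filled points are past an adjusted p of 0.05, and dotted lines mark log2 fold changes of -1 and 1. All 6 top points are open, from *Gli2* at -0.31 to *Gli1* at 1.10, and the intervals of *Smo* and *Sufu* are the narrowest among them.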

How the data were processed

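Bulk RNA-seq of tail tendons (Ion Total RNA-Seq Kit v2, Ion Proton) was analysed. The authors deposited raw counts per gene symbol, made from trimmed and quality-filtered reads that MapSplice had placed on mm9. The counting program, annotation and use of strand are not given in the sources used here. Each of the 6 columns carried the name of 1 sample and 0 were left unused. Genotypes were compared with edgeR 4.0.16 in R 4.3.3 (TMM, filterByExpr, quasi-likelihood fit on genotype alone), after the procedure had been tested on simulated data. Standard errors are the log2 fold change over the root of F. DESeq2 1.42.0 was an alternative. Exon lengths and coordinates are from GENCODE vM1 (mm9), which may differ from the counting annotation. Permutation tests used SciPy 1.17.1. Replicate libraries differed by more than sampling noise (chi-square over degrees of freedom 8.22 to 40.1).

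The 9 genes and all lists were chosen with earlier results of these data known. Named were the 9 genes and *Mkx*, genes of the pathway lists past an adjusted p of 0.05 (at most 6 a list), *Dhh*, up to 3 called and up to 3 most abundant genes of each cell type list, and the 5 nearest profiles, and some genes that this rule names are not reported here. *Hhat*, *Hhatl*, *Scube1*, *Scube2*, *Scube3*, *Disp1*, *Boc*, *Gas1*, *Foxf1*, *Ccnd2*, other genes of cell type lists, genes at 0 and all within-library ratios were chosen after their values were seen. Alternatives were DESeq2, RLE, upper-quartile and no scaling factors, 2 other filters, a robust fit, removal of muscle genes, a block on replicate number, and omission of single libraries.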

Additional observations from a re-analysis of the deposited data

How the results depend on the processing

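Under the 15 alternatives, 0 of the 9 Hedgehog genes were past an adjusted p of 0.05 except with all genes of at least 1 count in any library, where 1 gene, *Gli1*, was. That filter also gave 541 upregulated and 322 downregulated genes, and scaling by library size only gave 711 upregulated genes. Leaving out 1 library gave 103 to 321 upregulated and 112 to 248 downregulated genes. The upregulated count moved by over 1.5 times without WT replicate 2 (119), WT replicate 3 (103), *Mkx*-/- replicate 2 (155) or *Mkx*-/- replicate 3 (177), and the downregulated count without WT replicate 2 (113), WT replicate 3 (112) or *Mkx*-/- replicate 3 (121). With the replicate number as a block there were 195 upregulated and 136 downregulated genes and 0 Hedgehog genes, and *Ptch1* turned to -0.065. Same-numbered libraries deviated from their group means with correlations of -0.0021, -0.305 and 0.377, and not every library correlated best with its own number. The highest correlation between genotypes was 0.533, for WT replicate 1 with *Mkx*-/- replicate 2. Deviations within a group sum to 0, so these correlations depend on each other and cannot show whether the numbers pair the samples. *Ptch1* ranged from -0.32 to 0.34 and *Sufu* from -0.025 to 0.067 with 1 library left out, and *Smo* and *Gli3* turned to 0.17 and 0.014 with scaling by library size only, which moves all genes up by 0.25. Of 225 values of 15 named genes, 184 kept direction and side of the threshold, 28 lost it, 5 passed it and 8 turned sign. The cause of these changes was not tested. Counts of 0 to 10 limit *Ihh*, *Shh* and *Hhip*.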
